A study of Mus musculus with 18 samples.

Results

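The 10 genes described here encode the alpha and beta tubulins of the microtubule wall, 4 alpha tubulins (Tuba1a, Tuba1b, Tuba1c and Tuba4a) and 6 beta tubulins (Tubb2a, Tubb2b, Tubb3, Tubb4b, Tubb5 and Tubb6). They were chosen by symbol from the 22019 genes of the expression table, and all 10 exceeded the lowest value of the table in at least 3 of 18 libraries, as did 16021 genes in all. Polyadenylated RNA was sequenced from NIH 3T3 Tet-ON 3G cells, derived from a line of mouse embryonic fibroblasts, in 6 groups of 3 libraries. Cells carried a retroviral construct, induced by 1 μg/ml doxycycline for 48 hr, and grew on fibronectin-coated polyacrylamide gels. The control construct, SS-GFP-KDEL (KDEL), is a GFP held in the endoplasmic reticulum. The other, SS-HA-Sun1L-KDEL (SUN1L), is the lumenal domain of SUN1 and displaces the nesprins from the nuclear envelope, which disrupts the LINC complex between nucleus and cytoskeleton. KDEL and SUN1L cells were grown on soft (1 kPa) and stiff (308 kPa) gels, and KDEL cells on 308 kPa also received 25 μM Y27632 (Y27), an inhibitor of cell contractility, or 10 μM blebbistatin, an inhibitor of myosin II. Both kinds of cells were selected with puromycin after transduction, and the KDEL cells were also enriched by fluorescence sorting, so effects of the construct and of this sorting cannot be told apart.

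Libraries are named by the serial numbers in their labels, namely 4, 16 and 28 for KDEL on 1 kPa, 8, 20 and 32 for KDEL on 308 kPa, 3, 15 and 27 for SUN1L on 1 kPa, 7, 19 and 31 for SUN1L on 308 kPa, 12, 24 and 36 for Y27, and 10, 22 and 34 for blebbistatin. Library 34 was labelled with blebbistatin in one field and with Y27 in another, and both the fields on its construct give it an empty vector in place of SS-GFP-KDEL, so it may not carry the construct of the other libraries of its group. The main values with blebbistatin are also given without it. The libraries of a group are described as biological replicates, without a statement of what was separate between them, so p-values measure the spread between these libraries.

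Microtubules are hollow polymers of alpha and beta tubulin dimers. They carry kinesin and dynein motors, form the mitotic spindle, and reach the nucleus through motors bound to nesprins. Vertebrates encode several isotypes of each tubulin, which differ mostly in their acidic C-terminal tails. Tuba1a and Tubb2b are best known from the developing brain, Tubb3 is a widely used neuronal marker, and Tuba1b, Tubb5 and Tubb4b are broadly expressed. Cells adjust tubulin mRNA to the pool of free dimers: the ribosome-bound factor TTC5 recognizes the start of the nascent tubulin chain and triggers decay of the mRNA being translated.

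The first 4 codons, at which this autoregulation reads alpha and beta chains, are shown in capitals in the first 30 coding bases of 9 members, read 5′ to 3′ from the GENCODE M1 transcripts of build NCBIM37.
Tuba1a: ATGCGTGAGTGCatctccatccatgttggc
Tuba1b: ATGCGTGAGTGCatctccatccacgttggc
Tuba1c: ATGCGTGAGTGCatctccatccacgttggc
Tuba4a: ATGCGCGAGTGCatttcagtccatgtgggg
Tubb2a: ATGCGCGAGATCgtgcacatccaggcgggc
Tubb2b: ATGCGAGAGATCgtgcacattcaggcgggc
Tubb3: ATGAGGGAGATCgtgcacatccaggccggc
Tubb4b: ATGAGGGAGATCgtgcacctgcaggctggg
Tubb5: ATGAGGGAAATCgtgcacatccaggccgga
The alpha members used 2 different runs of letters over these codons and the beta members 5, counted over all 10 genes.

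Several members are close copies of each other, which bears on how their reads can be told apart. Tubb2a (chr13:34074301-34078008) and Tubb2b (chr13:34127008-34130354), neighbours on the minus strand of GRCm38, differed at 47 of 1338 coding bases, an identity of 96.5%. Tuba1a (chr15:98949841-98953551) and Tuba1b (chr15:98931425-98934565), also neighbours on the minus strand, differed at 23 of 1356 coding bases, an identity of 98.3%. The last 60 coding bases before the stop codon, which encode the isotype tail, are shown for Tubb2a and Tubb2b, with capitals where these 2 genes differ. Each capital is the last base of a codon and leaves the amino acid unchanged, so both stretches encode the same residues.
Tubb2a: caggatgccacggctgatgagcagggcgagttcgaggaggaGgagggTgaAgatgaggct
Tubb2b: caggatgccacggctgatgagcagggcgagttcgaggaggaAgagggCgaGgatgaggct
Of the 50-base windows of the longest transcript, the length of 1 read, 85.7% in Tuba1b, 71.9% in Tuba1a, 57.3% in Tubb2b and 50.4% in Tubb2a also occurred elsewhere in the genome or in transcripts of other genes. This share was 1.39% in Tubb5 and 0% in Tubb6. Reads that map to several places were removed by the authors' mapping-quality filter, so levels of Tuba1b and Tuba1a rest on a small part of their transcripts, and levels of different members are a rough guide only.

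Tubb5 and Tuba1b made up most of the tubulin signal in every library. The deposited signal is not divided by transcript length, so levels between genes are given as normalized signal per kilobase of the longest GENCODE M1 transcript. Averaged over 18 libraries, this level was 17776 for Tubb5, 12725 for Tuba1b, 6665 for Tuba1a, 5917 for Tubb4b, 3779 for Tubb6, 2540 for Tuba1c, 2114 for Tubb2a, 840 for Tuba4a, 70.3 for Tubb2b and 0.796 for Tubb3. The order was the same in all 18 libraries for 7 of the 9 neighbouring pairs. Tuba1a exceeded Tubb4b in 13 libraries and Tuba1c exceeded Tubb2a in 15 libraries, so these neighbours were not separated.

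Per length, Tuba1b formed 55.8% ± 3.35 (SD, n = 18 libraries) of the alpha tubulin signal, Tuba1a 29.4% ± 3.65, Tuba1c 11.2% ± 1.00 and Tuba4a 3.63% ± 1.27. Tubb5 formed 60.1% ± 2.64 of the beta tubulin signal, Tubb4b 20.2% ± 1.47, Tubb6 12.5% ± 1.36, Tubb2a 7.01% ± 1.89 and Tubb2b 0.216% ± 0.132. The make-up of each class therefore varied little for its main members and, Tubb3 apart, most relative to the mean for Tuba4a and Tubb2b. Tubb3 was at the lowest value of the table in 10 libraries and reached at most 3.36, close to the 1.70 to 2.49 signal units that 1 read pair is worth. Among 12 neuron markers only Ncam1 had a mean above 100, while 9 of 10 fibroblast markers did, Lum being the exception.

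**Figure D1:**
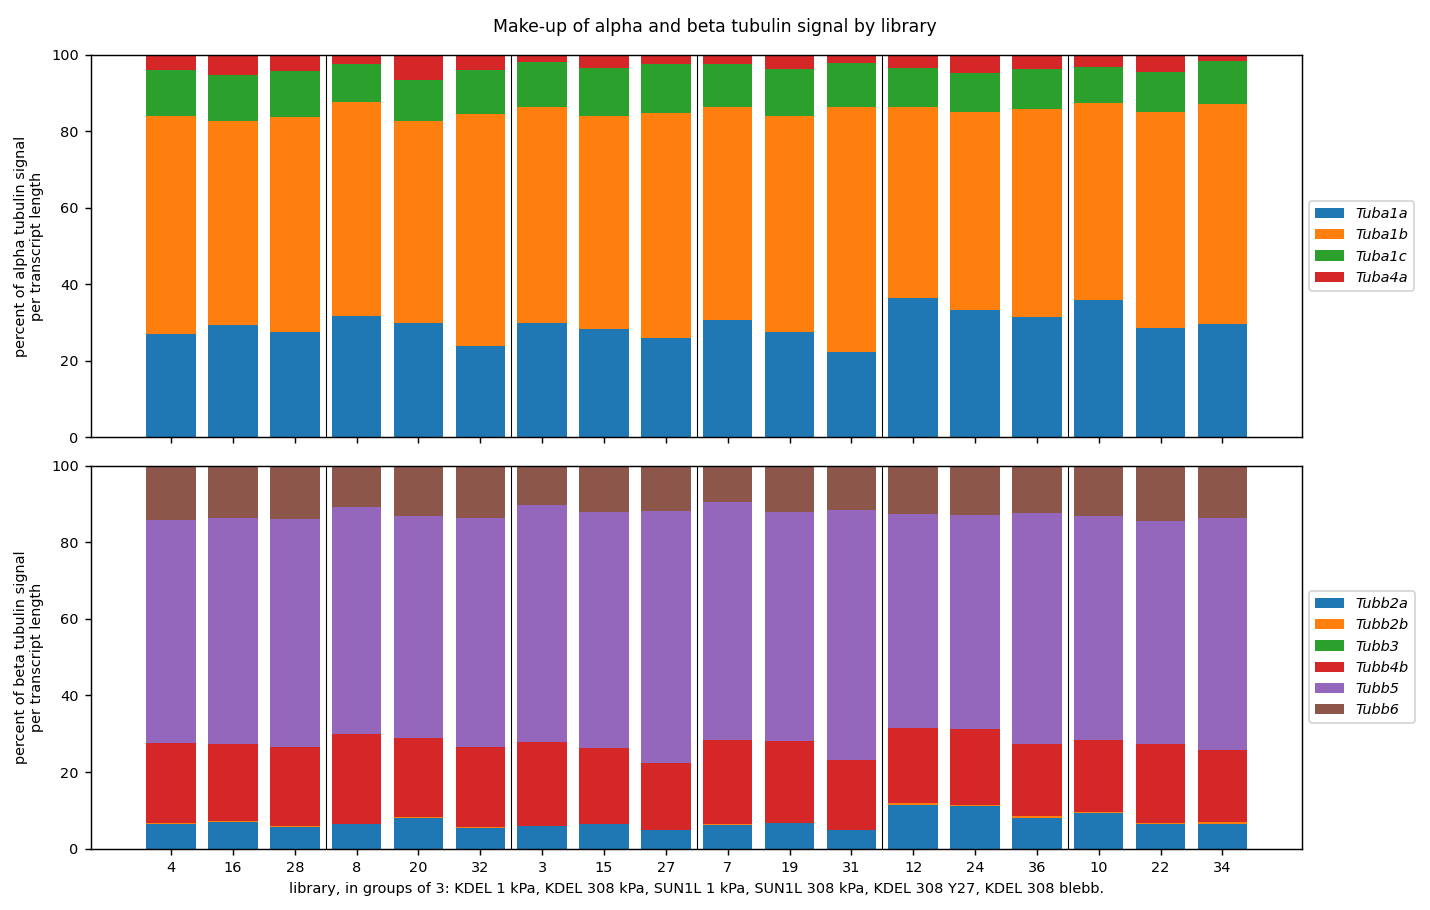
Stacked bars give, for each of 18 libraries, the percent of alpha (top) and beta (bottom) tubulin signal per transcript length that each gene contributed. Tuba1b spans 49.9 to 64.0% and Tubb5 55.9 to 65.8%, while Tubb2a lies at 8.07 to 11.4% in the Y27 libraries 12, 24 and 36 and reaches 9.17% in a blebbistatin library.

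The libraries were comparable in depth, but 3 of them stood apart. Read pairs were estimated at 12670000 to 19460000 per library, and the tubulins took 0.156 to 0.393% of the signal. Sun1, which the SUN1L construct carries, was at 38452 to 82617 in the 6 SUN1L libraries and at 2785 to 3799 in the others, as labelled. Libraries 3 (SUN1L, 1 kPa), 7 (SUN1L, 308 kPa) and 8 (KDEL, 308 kPa) lay below the other 15 libraries in 8 of the 10 members, as they did in 12.9% of all tested genes. The same libraries were lowest in 22 genes of cell division, with a mean log2 level of 8.44, 8.70 and 9.03 against 11.3 to 12.1 in the others. Their mean log2 level over 9 members (all but Tubb3) was 10.9, 10.8 and 11.3. Whether the low tubulin levels follow from fewer dividing cells was not tested, and in bulk RNA fewer cells of a type and less RNA per cell cannot be told apart.

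**Figure D2:**
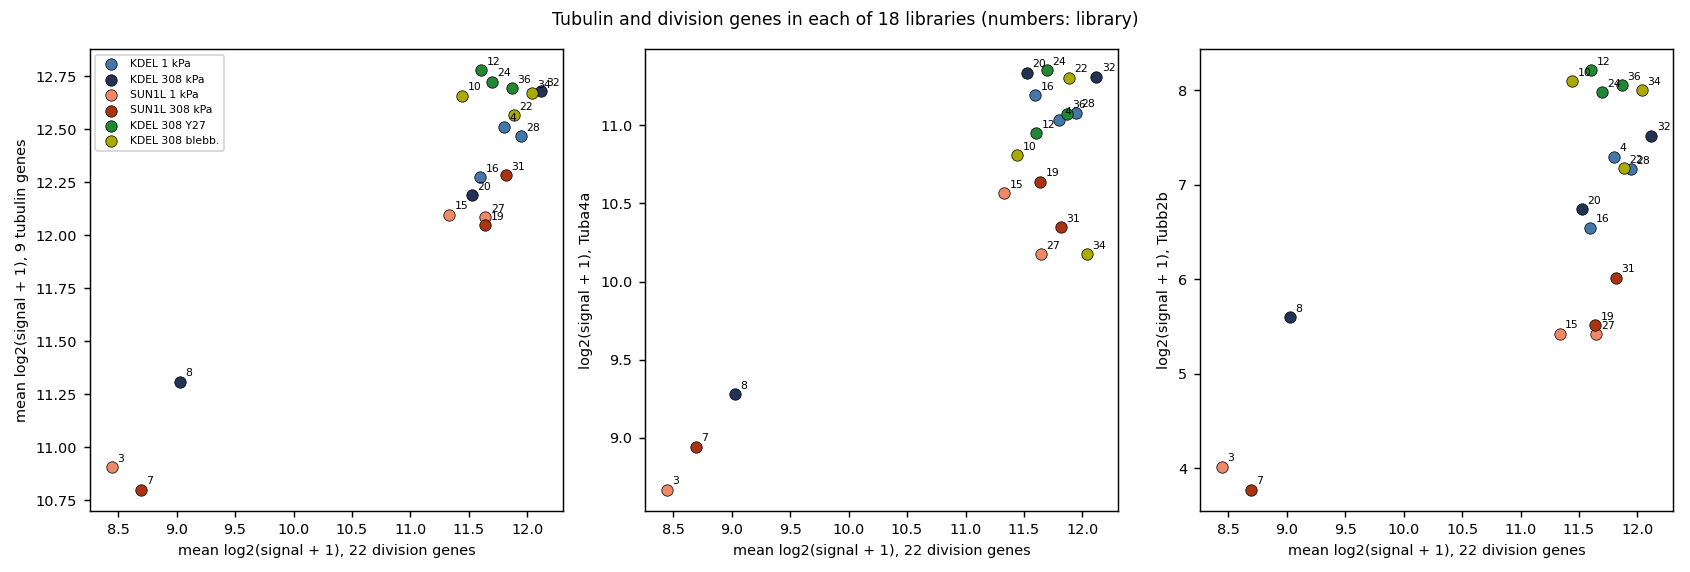
Each point is 1 library, with the mean log2(signal + 1) of 22 division genes on the x axis and, on the y axis, the mean of 9 tubulin genes, Tuba4a or Tubb2b. Libraries 3, 7 and 8 stand apart at 8.44 to 9.03 on the x axis, and in Tubb2b the SUN1L libraries also lie low at division levels shared with the others. No relation between the axes was tested.

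Tubb2b, Tuba4a, Tubb2a and Tuba1a were lower in SUN1L than in KDEL cells in every run of serial numbers on both rigidities, and no tubulin gene was called. The share of all tested genes with this pattern was not counted. Of these members Tubb2b and Tuba4a had the largest log2 fold changes. Some margins were small, with Tuba1a at -0.02 between libraries 15 and 16. Between libraries 7 and 8 Tuba4a differed by -0.34 and Tuba1a by -0.40. The test was limma on log2(signal + 1) over 12 libraries, with no term for the run of serial numbers. Counts with a block on runs are given in the last section. A called gene needed both a 2-fold difference or more and an adjusted p under 0.05. Tubb2b, on 1 kPa, had a signal of 156, 92.6 and 142 in KDEL libraries 4, 16 and 28, and of 15.2, 42.0 and 41.9 in SUN1L libraries 3, 15 and 27. The groups did not overlap, and 2 SUN1L libraries were nearly equal with library 3 below them. On 308 kPa, Tubb2b was at 47.6, 106 and 182 in KDEL libraries 8, 20 and 32, and at 12.7, 44.7 and 63.7 in SUN1L libraries 7, 19 and 31. Here the groups overlapped through library 8, one of the low libraries. The log2 fold change of SUN1L against KDEL was -2.05 ± 0.66 (SE) on 1 kPa (95% interval -3.50 to -0.60, limma unadjusted p = 0.0101, adjusted p = 0.93). On 308 kPa it was -1.52 ± 0.66 (95% interval -2.97 to -0.07, limma unadjusted p = 0.0418, adjusted p = 1). Without libraries 3, 7 and 8 these values were -1.58 and -1.37, neither called. The value on 308 kPa was -0.86 without library 7 alone and -2.03 without library 8 alone.

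Tubb2b was also low relative to its neighbour Tubb2a in SUN1L cells. Its signal was 0.970 to 2.47% of that of Tubb2a in the 6 SUN1L libraries, 2.86 to 5.85% in the 6 untreated KDEL libraries and 4.13 to 6.84% in the 6 libraries with an inhibitor, of which library 34 was the highest and the next was at 5.90%. The SUN1L libraries thus lay below all others in this ratio, library 8 included. The ratio itself was not tested. Tubb2b rests on few read pairs in libraries 7 and 3, at 12.7 and 15.2 where 1 read pair is worth 1.81 and 2.33, so the ratio is imprecise there.

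Tuba4a, an alpha tubulin found in many adult tissues, was at 2092, 2340 and 2166 in KDEL and at 406, 1516 and 1154 in SUN1L libraries on 1 kPa. The KDEL libraries were close to each other and all above the SUN1L libraries. On 308 kPa it was at 620, 2586 and 2539 in KDEL and at 491, 1594 and 1301 in SUN1L libraries, where library 8 again overlapped the SUN1L range. The log2 fold change was -1.30 ± 0.64 on 1 kPa (95% interval -2.71 to 0.11, limma adjusted p = 0.93) and -0.67 ± 0.64 on 308 kPa (95% interval -2.08 to 0.75, limma adjusted p = 1). Without library 3 the first was -0.73. The second was -1.35 without library 8 and -0.15 without library 7, and also smaller without library 20 (-0.32) or 32 (-0.33).

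The main isotypes differed less. On 1 kPa, Tuba1a was at 10895, 10104 and 11189 in KDEL and at 4925, 9981 and 9986 in SUN1L libraries, so that the groups were separate by a narrow margin apart from library 3. Tubb6, a beta tubulin encoded on chromosome 18, was at 8224, 6776 and 7776 in KDEL and at 2674, 6267 and 6622 in SUN1L libraries, again separate. Without library 3 the log2 fold change of Tuba1a went from -0.44 to -0.10 and that of Tubb6 from -0.66 to -0.23. Tubb5 differed by -0.27 on 1 kPa (95% interval -1.21 to 0.67) and by -0.01 on 308 kPa (95% interval -0.95 to 0.93), intervals wide enough to hold differences of some size in either direction. The first was 0.09 without library 3, and the second was 0.40 without library 7 and -0.30 without library 8.

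Of the 10 members, 0 were called in either comparison of the constructs, where 0.0874% of all tested genes were called on 1 kPa and 0.0624% on 308 kPa. The authors report tubulin among the cytoskeletal mRNAs that SUN1L significantly altered on the soft gel. They used z-score p-values with a 2-fold cutoff, a test other than limma, and their main text does not name the tubulin gene. At an unadjusted p under 0.05 stood 1 member, Tubb2b, in each comparison, against 4.54% and 2.53% of all tested genes. On 308 kPa this count was 0 without library 7, 15, 16, 20, 28 or 32. The groups did not overlap for 4 members on 1 kPa (Tuba1a, Tuba4a, Tubb2b and Tubb6, all lower in SUN1L), against 14.5% of all tested genes. On 308 kPa they did not overlap for 1 member, against 4.29%. That member was Tubb3, at 1.81, 2.49 and 2.14 in SUN1L and at 1 in each KDEL library, a difference of about 1 read pair. The median log2 fold change of the members was -0.44 on 1 kPa and -0.19 on 308 kPa, beside -0.01 and -0.03 for all tested genes, and without libraries 3, 7 and 8 it was -0.14 and -0.08. On 308 kPa the median was 0.22 without library 7 alone, 0.10 without library 32 and -0.43 without library 8.

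**Figure D3:**
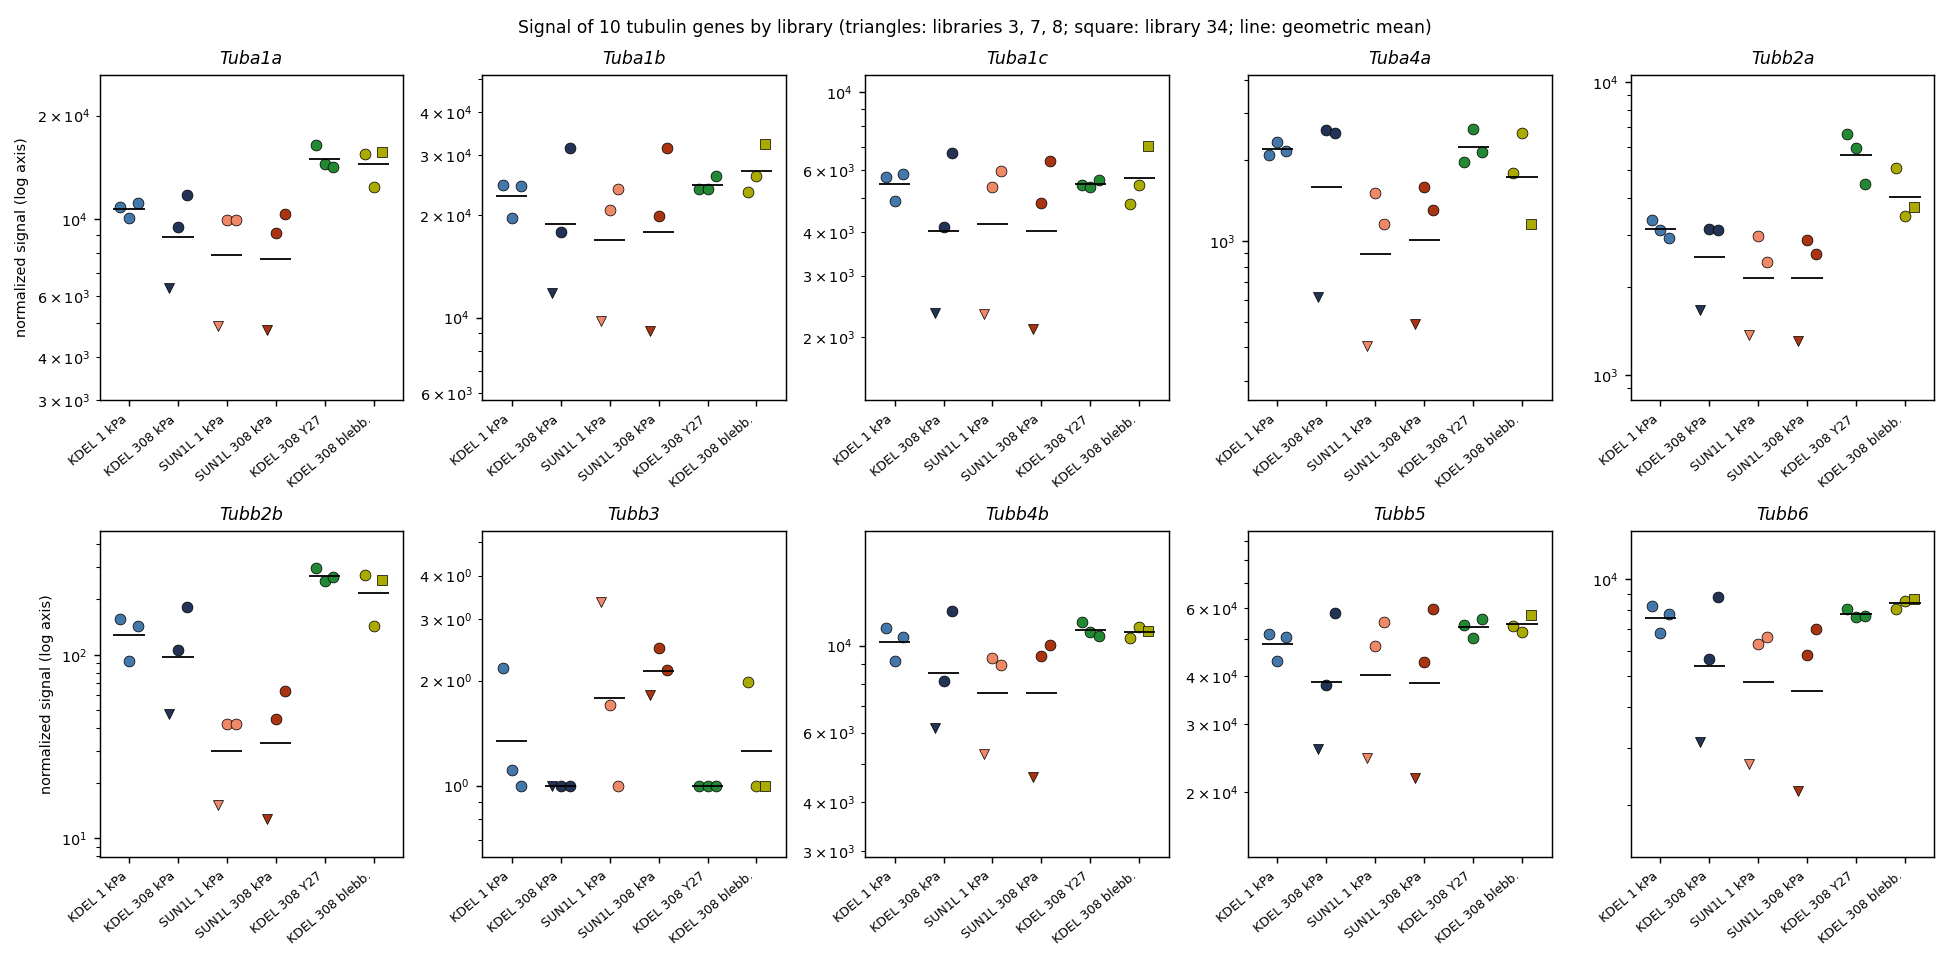
Normalized signal (log axis) of each tubulin gene in 18 libraries by group, with a line at the geometric mean, triangles for libraries 3, 7 and 8 and a square for library 34. In Tubb2b the SUN1L libraries lie between 12.7 and 63.7 and the inhibitor libraries between 144 and 296, and in most other members the triangles are the lowest points.

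Rigidity left no tubulin gene called, in KDEL or in SUN1L cells. The 10 members were lower on 308 kPa in KDEL cells, with a median log2 fold change of -0.32, but this rested on library 8, without which the median was -0.03. In SUN1L cells 5 members were higher and 5 lower on 308 kPa, with a median of -0.0034, which was -0.35 without library 3 and 0.38 without library 7. The largest difference in KDEL cells was that of Tubb6 at -0.49 (95% interval -1.58 to 0.60), which was -0.10 without library 8. In both comparisons 0 members were called, as were 0% of all tested genes. At an unadjusted p under 0.05 stood 0 members in KDEL cells, against 1.37% of all tested genes, and 0 in SUN1L cells, against 1.93%. The groups did not overlap for 0 members, against 4.78% in KDEL and 4.77% in SUN1L cells. The interaction of construct and rigidity was positive for all 10 members, with a median of 0.36, and at an unadjusted p under 0.05 for 0 of them, against 0.905% of all tested genes with 0% called. Its median without libraries 3, 7 and 8, of which the first is in the SUN1L group on 1 kPa and the others are in the groups on 308 kPa, was 0.06. It was -0.03 without library 3 alone and 0.75 without library 7 alone.

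Tubb2a, Tubb2b and Tuba1a were higher with either inhibitor of contractility than in untreated KDEL cells on 308 kPa, and none of them was called. Both comparisons used the same untreated libraries 8, 20 and 32, in 1 fit of 9 libraries. Tubb2a was at 1661, 3139 and 3119 in the untreated libraries, at 6621, 5955 and 4499 with Y27 and at 5076, 3485 and 3730 with blebbistatin. All 6 inhibitor libraries exceeded the untreated ones, those with Y27 by the wider margin. Its log2 fold change was 1.15 ± 0.28 with Y27, which is 2.22-fold (95% interval 0.50 to 1.80, limma unadjusted p = 0.00362, adjusted p = 0.707). With blebbistatin it was 0.67 ± 0.28 (95% interval 0.02 to 1.32, limma unadjusted p = 0.0438, adjusted p = 0.89). Without library 8 the values were 0.84 and 0.37.

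Tubb2a formed 8.07 to 11.4% of the beta tubulin signal per length with Y27 and 5.35 to 8.02% in the untreated libraries, so that its share was separate from that of the untreated group as well. With blebbistatin the share was 6.50 to 9.17%, which overlapped. An exact permutation test of 3 libraries against 3 cannot go below p = 0.1, and none was used.

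Tubb2b was at 47.6, 106 and 182 in the untreated libraries, at 296, 251 and 265 with Y27 and at 273, 144 and 255 with blebbistatin. The Y27 libraries were close to each other and above every other library of the series except library 10 and library 34, which lay among them. The log2 fold change was 1.46 ± 0.47 with Y27 (95% interval 0.37 to 2.55, limma unadjusted p = 0.0148, adjusted p = 0.707) and 1.14 ± 0.47 with blebbistatin (95% interval 0.05 to 2.22, limma unadjusted p = 0.0424, adjusted p = 0.89). Without library 8 these were 0.95 and 0.63.

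Tuba1a was at 6319, 9487 and 11748.5 in the untreated libraries, at 16431, 14480 and 14147 with Y27 and at 15473, 12441.5 and 15676 with blebbistatin. All inhibitor libraries lay above all other libraries of the series. The log2 fold change was 0.75 ± 0.22 with Y27 (95% interval 0.24 to 1.26, limma unadjusted p = 0.00933, adjusted p = 0.707) and 0.70 ± 0.22 with blebbistatin (95% interval 0.19 to 1.21, limma unadjusted p = 0.0133, adjusted p = 0.89). Without library 8 these were 0.51 and 0.45. Tuba1b, its close copy, differed by 0.39 (95% interval -0.36 to 1.13) and 0.52 (95% interval -0.22 to 1.27), and its groups overlapped in both. Without library 8 the differences of Tuba1b were 0.05 and 0.19.

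With library 34 left out, the differences with blebbistatin were 0.64 for Tuba1a, 0.73 for Tubb2a and 1.02 for Tubb2b. Tuba4a went the other way in library 34, at 1156 against 1791 and 2531 in libraries 10 and 22, and its difference of 0.12 became 0.41 without that library. That of Tuba1b became 0.40. With library 34 kept and library 8 left out, the difference with blebbistatin was -0.56 for Tuba4a and 0.19 for Tuba1b. Tuba1a and Tubb2a remained the 2 members whose groups did not overlap without library 34, against 13% of all tested genes, and the median of the members was 0.44. Tuba4a with Y27 was at 1978, 2613 and 2156, which overlapped the untreated libraries.

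Of the 10 members, 0 were called with Y27 or with blebbistatin, as were 0% of all tested genes in both comparisons. At an unadjusted p under 0.05 stood 3 members with Y27, against 6.05% of all tested genes, and the same 3 with blebbistatin, against 4.21%. The groups did not overlap for 3 members with Y27, against 8.57% of all tested genes, and for 2 with blebbistatin (Tuba1a and Tubb2a), against 7.22%. The median log2 fold change of the members was 0.48 with Y27 and 0.51 with blebbistatin, beside 0.01 and 0 for all tested genes. These counts depended on which libraries entered the fit. Without library 8 the medians were 0.14 and 0.20, with 3 and 1 members at an unadjusted p under 0.05. Without library 32, the highest untreated library in 7 of the members, the medians were 0.82 and 0.85, with 8 members in each comparison. With blebbistatin, 1 member stood under that p without library 10, 12, 24 or 34.

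The summed signals of epithelium and fibroblast markers also differed with Y27, while those of neuron, muscle and immune markers overlapped the untreated libraries. The summed signal of 8 epithelium markers, of which Cdh1 and Krt14 had a mean above 100, was 374, 871 and 1172 with Y27. It was at most 352, in library 8, in the untreated KDEL libraries on 308 kPa, so that these groups did not overlap. SUN1L libraries on 308 kPa reached 529. The mean log2 level of the same markers overlapped, at 2.61 to 3.17 with Y27 and 2.59 to 2.90 in the untreated libraries. Krt18 was at the lowest value in all 18 libraries. The summed signal of 10 fibroblast markers was 922070, 976514 and 793879 with Y27 and 619453, 786100 and 631086 without, again with no overlap. With blebbistatin the epithelium and fibroblast sums overlapped the untreated libraries, at 251 to 774 and at 623290 to 870277. The part of these markers in the tubulin differences was not tested.

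**Figure D4:**
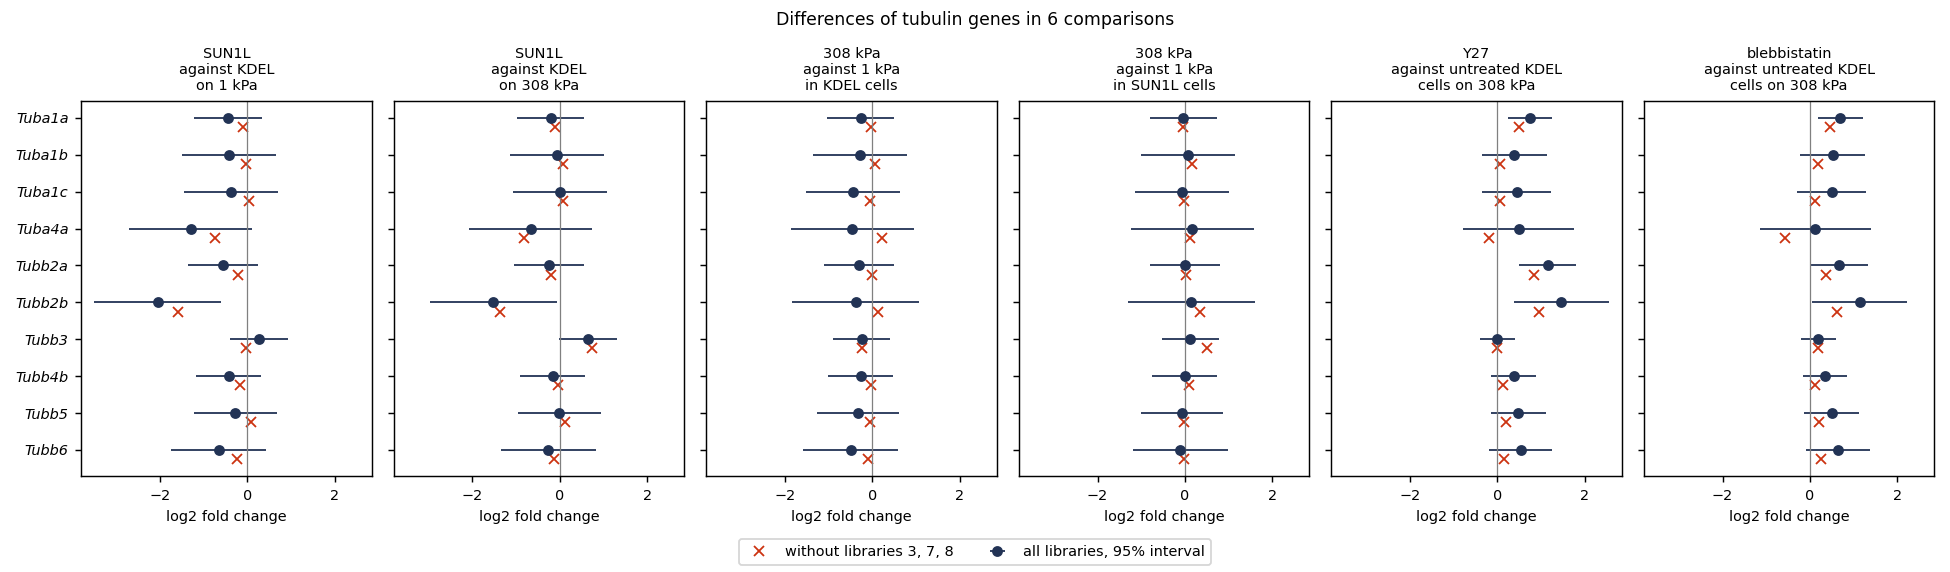
Log2 fold change of each tubulin gene (points, with 95% intervals from limma) in 6 comparisons, and the same without libraries 3, 7 and 8 (crosses). The crosses lie nearer to 0 for most members between the constructs on 1 kPa, between the rigidities in KDEL cells and with the inhibitors. Between the constructs on 308 kPa and between the rigidities in SUN1L cells the members are mixed. Those of Tubb2b in SUN1L against KDEL cells lie at -1.58 and -1.37.

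The promoters of Tubb2a and Tuba1a are shown because these genes lay above all untreated libraries with both inhibitors. The sequences are the 250 bases before the RefSeq start on GRCm38.p6, read 5′ to 3′ on the minus strand, with the motifs CCAAT and GGGCGG in capitals on either strand. The RefSeq start of Tuba1a lies inside the gene's span in the table.
Tubb2a, chr13:34078009-34078258: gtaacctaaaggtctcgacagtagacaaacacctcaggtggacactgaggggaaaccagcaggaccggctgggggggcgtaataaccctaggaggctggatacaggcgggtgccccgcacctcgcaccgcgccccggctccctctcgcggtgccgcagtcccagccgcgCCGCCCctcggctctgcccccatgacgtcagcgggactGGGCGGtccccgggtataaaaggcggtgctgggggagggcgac
Tuba1a, chr15:98953502-98953751: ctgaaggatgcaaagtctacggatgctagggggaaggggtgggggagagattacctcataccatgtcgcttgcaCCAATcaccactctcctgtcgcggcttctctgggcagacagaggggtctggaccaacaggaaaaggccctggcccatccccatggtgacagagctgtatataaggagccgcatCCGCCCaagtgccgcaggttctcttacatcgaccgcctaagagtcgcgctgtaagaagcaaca
CCAAT stood in 5 of 8 member promoters and in 33.9% of 32841 promoters of the same length, and GGGCGG in 6 of 8 and 32.7%. TTTGAA, the core of a cell cycle element, stood in 1 of 8 (Tubb4b) and in 15.99%, and TTCGAA in 0 of 8 and 1.34%. TATAAA stood in 1 of 8 (Tubb2a) and in 12.4%. The CArG box, the binding motif of the serum response factor, stood in 0 of 8 and in 1.47%. A CArG box can hold the letters TATAAA, so these motifs can overlap. These are matches of letters, and no site was tested.

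Tubb2b and Tuba4a varied most over the 18 libraries, with an SD of log2(signal + 1) of 1.39 and 0.84. The genes whose log2 signal was most like that of Tubb2b were Mmab, a mitochondrial enzyme of cobalamin metabolism (Pearson r = 0.967), Rab32, a small GTPase (0.963), Spryd7 (0.960), Samhd1, a dNTP hydrolase (0.955), and Pcyt1b, an enzyme of phosphatidylcholine synthesis (0.953). Over the 15 libraries other than 3, 7 and 8, these values were 0.956, 0.920, 0.949, 0.912 and 0.935. For Tuba4a the genes were Rnf157, a ubiquitin ligase (0.945), the membrane glycoprotein gene Pdpn (0.941), the phosphatase gene Dusp3 (0.939), the DNA repair gene Rad50 (0.938) and Nsg1 (0.937). Over the 15 libraries they were 0.744, 0.762, 0.694, 0.680 and 0.692, so the likeness to Tuba4a rested in part on the low libraries. These are descriptions over libraries that share groups, with no test.

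Sun1 apart, no gene of the microtubule lists was called in any comparison. Other than Sun1, Ttc5, Stmn1, Map4, Tubg1, Hdac6 and Kif5b, list genes are named for comparisons in which their groups did not overlap. That they did not overlap is thus a result of the choice. Of all tested genes, 14.5% and 4.29% did not overlap between the constructs on 1 and 308 kPa, 8.57% with Y27 and 7.22% with blebbistatin. Among 10 further tubulin genes, only Tubg1 (gamma tubulin of the nucleating ring complex, mean signal 2556), Tube1 (272) and Tubd1 (109) had a mean above 100. Tubg1 differed by -0.46 in SUN1L against KDEL cells on 1 kPa and by 0.39 with Y27 (limma adjusted p = 0.93 and 0.85), values that became -0.10 without library 3 and 0.02 without library 8. Of 22 genes for tubulin folding and autoregulation, 0 were called in any comparison. Ttc5, the autoregulation factor, differed by -0.02 and -0.07 in SUN1L cells on 1 and 308 kPa. With Y27 it differed by -0.05, and with blebbistatin by -0.02, or 0.01 without library 34. Its group means lay between 533 and 619.

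Tbcc, a cofactor of the last folding step, was at 724, 908 and 810 with Y27 and at 485, 685 and 620 without, a log2 difference of 0.46 ± 0.15 (limma adjusted p = 0.707). Its groups did not overlap. Tbccd1, a relative of Tbcc, was at 1047, 1152 and 1043 in SUN1L and at 1340, 1319 and 1190 in KDEL libraries on 1 kPa. On 308 kPa it was at 1047, 1192 and 1012 against 1228, 1430 and 1297, so that on each rigidity every SUN1L library lay below every KDEL library. The differences were -0.25 and -0.28 on the log2 scale. Neither was called (limma adjusted p = 0.93 and 1).

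Of 21 nucleation genes, 20 tested modifying enzymes of 23 listed and 41 tested microtubule-binding proteins of 44 listed, 0 were called in any comparison. The median log2 fold change of the nucleation genes was -0.28 in SUN1L against KDEL cells on 1 kPa and 0.20 with blebbistatin. Mzt1, a small subunit of the nucleating complex, differed by 0.25 with blebbistatin (limma adjusted p = 0.89) and by 0.22 without library 34. Agtpbp1, which trims glutamates from tubulin tails, was at 1317, 1345 and 1442 with blebbistatin and at 901, 1179 and 1082 in the untreated libraries, which did not overlap (limma adjusted p = 0.89). Without library 34 its log2 difference was 0.35. Hdac6, a tubulin deacetylase, had group means between 1114 and 1197.

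Map4, the main structural microtubule-associated protein of non-neuronal cells, was at 14614, 14263 and 14707 with Y27, at 14724, 15605 and 14240 with blebbistatin and at 11077, 12988 and 14008 in the untreated libraries. All inhibitor libraries were higher, by 0.20 and 0.23 on the log2 scale (limma adjusted p = 0.82 and 0.89), the second being 0.26 without library 34. The lowest untreated value of Map4, as of Tbcc, Mzt1 and Agtpbp1, was that of library 8, one of the low libraries. A further row of the table with the symbol Map4 was at the lowest value throughout. Stmn1, which sequesters tubulin dimers, was at 541 and 707 in SUN1L libraries 3 and 7 and at 879 in KDEL library 8 against 1961 to 3673 in the others, and differed by -0.98 in SUN1L against KDEL cells on 1 kPa (limma adjusted p = 0.93), which was -0.32 without library 3. Map1s, which binds microtubules along their length, was at 3527, 3177 and 2954 on 1 kPa and at 2175, 2520 and 2452 on 308 kPa in KDEL cells, a difference of -0.43 (limma adjusted p = 1). Clip2, a plus-end protein, differed by -0.37 between the rigidities in SUN1L cells (limma adjusted p = 1). Camsap1, which binds minus ends, and Clasp2, which stabilizes plus ends, differed by -0.24 and 0.18 with Y27 (limma adjusted p = 0.707 and 0.789).

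Of 31 tested genes for nesprins, SUN proteins and the motors that bind them, Sun1 was called in SUN1L cells (log2 fold change 4.32 on 1 kPa and 4.06 on 308 kPa), as the construct dictates, and no other gene was called. Dynlt3, a dynein light chain, was at 3142, 3751 and 3373 in SUN1L and at 4159, 4156 and 4106 in KDEL libraries on 1 kPa. On 308 kPa it was at 3430, 3509 and 3333 against 4168, 4210 and 3796, so the 6 SUN1L libraries lay below the 6 KDEL libraries (log2 fold change -0.28 and -0.24, limma adjusted p = 0.93 and 1). Klc2, a kinesin light chain, was lower with Y27 by -0.31 and with blebbistatin by -0.23 on the log2 scale (limma adjusted p = 0.707 and 0.89), the latter being -0.18 without library 34. Its highest untreated value, 1520, was that of library 8. Dctn1, the large dynactin subunit, differed by -0.24 between the rigidities in SUN1L cells (limma adjusted p = 1). Kif5b, the main kinesin heavy chain of fibroblasts, differed by at most 0.15 in size in any of the comparisons of 2 groups. That largest value, with blebbistatin, was 0.21 without library 34.

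The division genes differed in the same direction as most members between the constructs and with the inhibitors. All 22 were lower in SUN1L than in KDEL cells on 1 kPa (median log2 fold change -1.33), and 0 were called. All 22 were higher with Y27 (0.86) and blebbistatin (0.89, or 0.77 without library 34), and 0 were called. These differences rested largely on libraries 3 and 8. On 308 kPa the mean log2 level of these genes was 9.03 in library 8 and 11.52 and 12.12 in untreated libraries 20 and 32. It was 11.61 to 11.86 with Y27 and 11.44 to 12.04 with blebbistatin. On 1 kPa it was 8.44 in library 3, 11.33 and 11.64 in SUN1L libraries 15 and 27, and 11.6 to 11.9 in KDEL libraries. Between the rigidities in KDEL cells all 22 were lower on 308 kPa (-0.90), as were all 10 members (-0.32). In SUN1L cells all 22 were higher on 308 kPa (0.29), where the members were split. The interaction of construct and rigidity was positive for all 22 (1.13) and for all 10 members (0.36). The part of the division genes in the tubulin differences was not tested. In the libraries other than 3, 7 and 8 the division level lay between 11.3 and 12.1. Tubb2b in SUN1L against KDEL cells differed there by -1.58 on 1 kPa and -1.37 on 308 kPa, neither called. That removal was chosen after the data were seen, and how Tubb2b relates to the division genes was not tested.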

How the data were processed

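RNA was measured in 18 libraries of 6 groups, assigned from the labels. The authors sequenced paired-end 50-base reads, aligned them with TopHat 2.0 to mm9, kept reads by base quality 30, alignment score 95 and mapping quality 40, and removed duplicates. They deposited 1 normalized signal per gene and library from AvadisNGS (trimmed mean of M-values, lowest value 1). Gene positions in the table lie on GRCm38, since 99.89% of 20148 matched genes overlap their RefSeq GRCm38.p6 position and 12.14% of 20547 that of NCBIM37. The column of library 34 is numbered 35. Of the low values, 41.7 to 44.9% per library were whole multiples of 1 read pair (within 0.02), so no count test was used. Each library held an estimated 12670000 to 19460000 read pairs, and a value near 1 rests on few or none.

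Tests used limma 3.58.1 (R 4.3.3) with a trended prior variance on log2(signal + 1). The 16021 genes that exceeded the table's minimum in 3 libraries or more were tested. All were two-sided with Benjamini-Hochberg adjustment. The fit for construct and rigidity used 12 libraries and that for inhibitors 9. The model was also run on simulated data, with noise drawn independently for each gene and library. That simulation held no runs and no low libraries, so it cannot tell how the test behaves with them. Genes named beyond the members were those of the microtubule lists that were called or, per comparison, the 2 highest and 2 lowest with an unadjusted p under 0.05, groups that do not overlap and a mean above the median, besides Ttc5, Stmn1, Map4, Tubg1, Hdac6, Kif5b and Sun1, and the 5 genes most like the 2 most variable members. Marker lists for epithelium, muscle and immune cells had 2, 2 and 1 of 8 genes with a mean above 100. The members and lists were chosen with earlier results of these data known. Transcript lengths came from GENCODE M1. Alternatives were other filters, pseudocounts and scalings, array weights, a block on runs of serial numbers, summed close copies, and each library left out. The removal of libraries 3, 7 and 8 together was added after the data were seen.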

Additional observations from a re-analysis of the deposited data

How the results depend on the processing

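The count of tubulin genes called was 0 in every comparison under every alternative run, namely no filter (17514 genes that exceeded the minimum anywhere), a mean of at least 10, pseudocounts of 8 and 0.1, quantile normalization, all 18 libraries in 1 fit, no trend, array weights, a replicate block on runs of serial numbers, the adjusted p alone, close copies summed, each library left out, libraries 3, 7 and 8 left out, and these and library 34 left out. The labels give no shared replicate numbers, so the runs of serial numbers took their place, and nothing says that a run shares a day. Deviations from the group means correlated at 0.07 to 0.67 (median 0.29) over 45 pairs of libraries of a run, 41 of them over 0.1, and each of the 18 libraries correlated best, on average, with its own run. With this replicate block 0 members were called, 3 in place of 1 stood at an unadjusted p under 0.05 in SUN1L against KDEL cells on 1 kPa, and 1 in place of 3 with blebbistatin. That last count was also 1 with no filter and with all 18 libraries in 1 fit. Of 70 member differences, 28 changed sign under at least 1 of these settings other than the joint removals, counting only sizes of at least 0.01 on the log2 scale, and 1 of them had a size of at least 0.5. With each library left out, Tubb2b in SUN1L against KDEL cells ranged from -2.28 to -1.58 on 1 kPa and from -2.03 to -0.86 on 308 kPa, and Tubb2a with Y27 from 0.84 to 1.31. Depth limits Tubb3, whose values rest on about 1 read pair, and to a lesser degree Tubb2b, which rests on few read pairs in libraries 3 and 7.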
